A study of Mus musculus with 6 samples.

Results

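The forkhead factor genes of these arrays are the 39 genes whose name in any of the 6 lists of Ezh2 peaks is Fox, a letter and a number, out of 9614 genes named in those lists. A gene carries a name in the files only beside a listed peak, so each of the 39 had a peak on at least 1 array by construction, and forkhead genes not named there, such as Foxh1, are not analysed here. Foxl2os, which the name rule also takes in, is the gene of the transcript on the strand opposite Foxl2 and encodes no forkhead factor. Its window shared 36 of its 40 probes with that of Foxl2, so the pair is close to 1 measurement. Ezh2 binding was measured by chromatin immunoprecipitation (ChIP) with an anti-Ezh2 antibody, and each array set the ChIP DNA (Cy5) against input DNA (Cy3) on a mouse RefSeq promoter tiling array. PL2F8 (2 arrays) is a Brca1 deficient mouse embryonic stem cell line and AB2.2 (2 arrays) is its Brca1 wild-type counterpart, both of strain 129/SvEvBrd-Hprtb-m2. R1 mouse embryonic stem cells were transfected with Brca1 specific siRNA (1 array) or with control siRNA (1 array) and harvested 48 hours later. All cells were grown on gelatin with LIF, the cytokine that holds mouse embryonic stem cells undifferentiated. Each of PL2F8 and AB2.2 is 1 cell line, so Brca1 status and line cannot be told apart, and the labels do not say whether the duplicates came from separate cultures. The arrays measure bound DNA and not RNA or protein, so neither the loss of Brca1 nor the cell identity was checked by expression.

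Forkhead factors are transcription factors that bind DNA through a winged helix domain. Foxa proteins open closed chromatin for endoderm genes, Foxc, Foxd and Foxf proteins act in mesoderm and organ formation, and Foxo proteins carry insulin and growth factor signals to the nucleus. Ezh2 is the catalytic subunit of Polycomb repressive complex 2, which methylates lysine 27 of histone H3, and in embryonic stem cells it covers CpG-rich promoters of silent developmental regulators. The question set by the labels is how Ezh2 targeting differs when Brca1, a DNA repair protein, is lost or knocked down.

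The RefSeq promoters (GRCm38.p6, 250 bases before to 50 bases after the start) of 6 members are printed because they span the range of Ezh2 signal: Foxl2 and Foxf2 were among the 5 highest, Foxa1 and Foxj2 had some of the largest differences between PL2F8 and AB2.2, Foxn1 carried listed peaks in R1 cells only, and Foxk2 was the lowest. Capitals mark CpG dinucleotides, which number 27 in Foxl2, 27 in Foxf2, 26 in Foxa1, 37 in Foxj2, 8 in Foxn1 and 59 in Foxk2, against a median of 7 over all 32841 promoters in the table.
Foxl2 (chr9:98955357-98955656, + strand): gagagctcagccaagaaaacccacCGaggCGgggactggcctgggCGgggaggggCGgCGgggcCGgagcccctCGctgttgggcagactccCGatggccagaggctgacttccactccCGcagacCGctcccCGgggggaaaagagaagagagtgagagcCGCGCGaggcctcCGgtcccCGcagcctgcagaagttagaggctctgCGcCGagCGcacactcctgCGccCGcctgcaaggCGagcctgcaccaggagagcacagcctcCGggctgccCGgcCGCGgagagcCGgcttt
Foxf2 (chr13:31625566-31625865, + strand): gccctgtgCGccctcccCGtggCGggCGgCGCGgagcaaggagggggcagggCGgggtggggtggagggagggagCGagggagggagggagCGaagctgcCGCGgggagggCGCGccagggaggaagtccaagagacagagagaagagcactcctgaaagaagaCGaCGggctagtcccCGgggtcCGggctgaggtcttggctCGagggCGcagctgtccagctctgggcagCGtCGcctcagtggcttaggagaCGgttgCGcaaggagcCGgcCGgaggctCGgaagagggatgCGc
Foxa1 (chr12:57546062-57546361, - strand): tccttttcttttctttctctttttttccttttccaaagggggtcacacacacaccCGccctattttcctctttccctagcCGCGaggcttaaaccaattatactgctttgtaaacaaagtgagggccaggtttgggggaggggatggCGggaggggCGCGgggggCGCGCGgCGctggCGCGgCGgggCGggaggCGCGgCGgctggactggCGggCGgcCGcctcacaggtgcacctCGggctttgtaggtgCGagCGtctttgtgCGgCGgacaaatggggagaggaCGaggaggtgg
Foxj2 (chr6:122819934-122820233, + strand): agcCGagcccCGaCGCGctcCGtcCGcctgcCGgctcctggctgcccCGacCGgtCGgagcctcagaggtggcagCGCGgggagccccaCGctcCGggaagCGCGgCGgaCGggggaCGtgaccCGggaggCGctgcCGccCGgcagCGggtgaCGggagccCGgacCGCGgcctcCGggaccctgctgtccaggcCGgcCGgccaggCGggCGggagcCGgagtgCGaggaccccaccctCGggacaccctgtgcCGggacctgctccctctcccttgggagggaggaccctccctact
Foxn1 (chr11:78386559-78386858, - strand): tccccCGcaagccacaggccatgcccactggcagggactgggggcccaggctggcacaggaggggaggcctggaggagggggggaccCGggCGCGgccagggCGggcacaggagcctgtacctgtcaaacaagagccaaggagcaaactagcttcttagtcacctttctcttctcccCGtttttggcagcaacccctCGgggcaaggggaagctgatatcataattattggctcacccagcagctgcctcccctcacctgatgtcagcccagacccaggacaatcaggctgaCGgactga
Foxk2 (chr11:121259737-121260036, + strand): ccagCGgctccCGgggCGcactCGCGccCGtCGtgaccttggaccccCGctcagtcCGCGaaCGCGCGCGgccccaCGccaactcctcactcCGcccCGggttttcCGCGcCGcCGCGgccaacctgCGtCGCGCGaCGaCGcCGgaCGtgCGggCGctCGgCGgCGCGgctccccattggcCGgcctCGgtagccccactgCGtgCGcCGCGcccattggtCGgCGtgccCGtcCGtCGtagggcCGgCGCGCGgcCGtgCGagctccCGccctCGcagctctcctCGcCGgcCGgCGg
Foxk2 thus held the most CpG of the 6 and the lowest Ezh2 signal of the 39, while the CpG count of Foxn1 lay close to the median of all promoters. The forkhead core motif TGTTTAC, searched on both strands, occurred in the Foxa1 promoter and in none of the other 5, and 3.65% of all promoters hold it. Only 26 of the 39 members (66.7%) have a promoter in the table, so a check of base composition over the whole set is void.

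Ezh2 signal is given as the mean log2 ratio of ChIP over input of the probes within 2000 bp of the start, after each array was centred on its median. A value of 1 is a 2-fold enrichment over the array's median probe. The windows of the members held 22 to 40 probes, and all but Foxa3, Foxl2 and Foxl2os were tiled less than 1000 bp downstream of the start. The forkhead genes lay high: the median member averaged 1.89 over the 6 arrays, against 0.44 for the median of 9612 named genes with a window. Of the 39, 19 (48.7%) averaged at least 2, against 7.47% of the named genes, 7 lay from 1 to under 2, and 13 lay under 1. The median over members was 2.34 and 2.24 on the PL2F8 arrays, against 1.60 and 1.44 on the AB2.2 arrays. It was 1.86 with Brca1 siRNA and 1.80 with control siRNA in R1 cells.

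**Figure D1:**
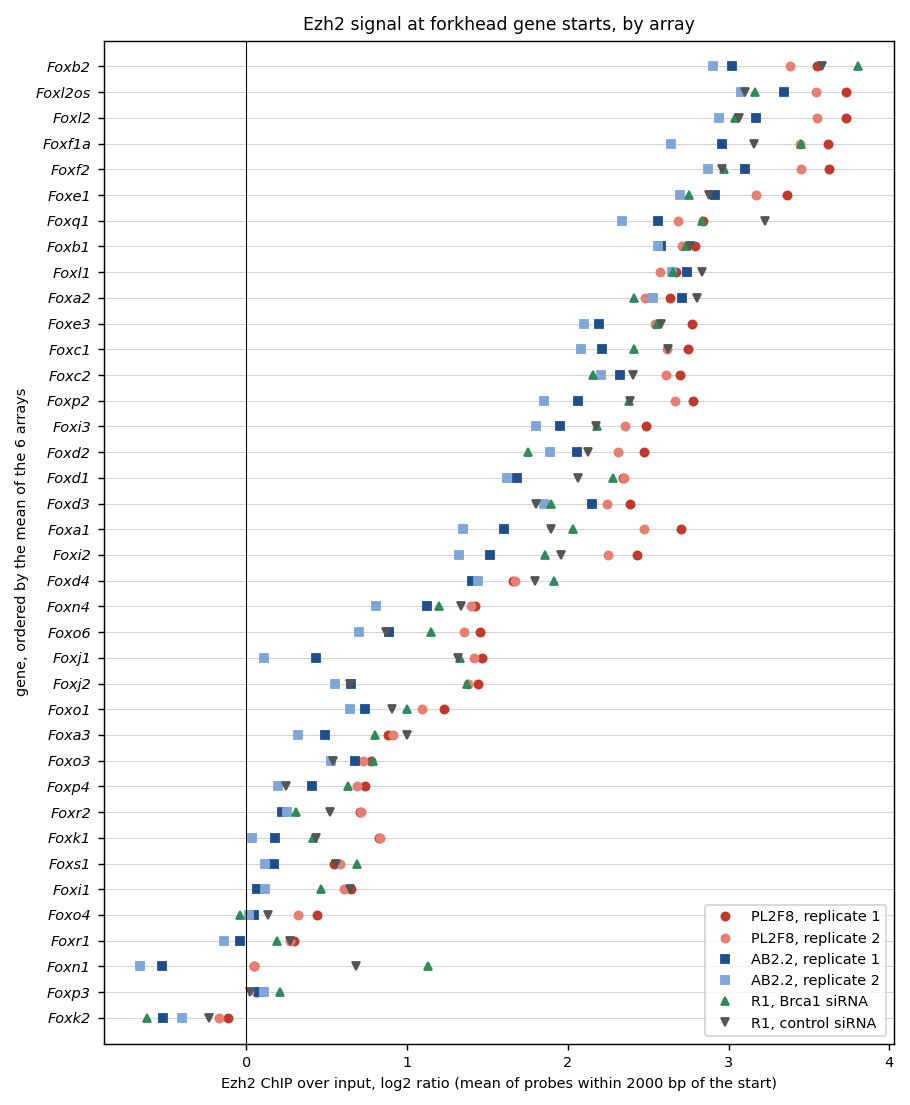
Mean Ezh2 log2 ratio (x axis) of 38 of the forkhead genes (rows, ordered by the mean of the 6 arrays) on each array; points are arrays. Foxb2, Foxl2os and Foxl2 stand at the top and Foxk2 at the bottom, and at most genes the PL2F8 points lie to the right of the AB2.2 points.

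The highest signals were at genes of the brain, ovary and gut. Foxb2, a factor of the developing brain (chromosome 19 in the mouse), averaged 3.37 over the arrays: 3.55 and 3.39 in PL2F8, against 3.02 and 2.90 in AB2.2, and 3.80 with Brca1 siRNA, against 3.58 with control siRNA. Foxl2, which keeps ovarian granulosa cells in their fate, had 3.73 and 3.55 in PL2F8, against 3.17 and 2.94 in AB2.2, and 3.04 with Brca1 siRNA, against 3.06 with control siRNA. Its overlapping neighbour Foxl2os had 3.73 and 3.54 in PL2F8, against 3.35 and 3.08 in AB2.2, and 3.17 with Brca1 siRNA, against 3.10 with control siRNA. In both the PL2F8 arrays stood above the other 4.

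Foxf1a, a factor of the gut mesenchyme and lung, was the other of the 4 highest and is described with the line difference below. At the low end, Foxk2, a broadly expressed factor, had -0.11 and -0.17 in PL2F8, against -0.52 and -0.40 in AB2.2, and -0.62 with Brca1 siRNA, against -0.23 with control siRNA. Foxp3, the factor that defines regulatory T cells, had 0.07 and 0.06 in PL2F8, against 0.08 and 0.11 in AB2.2, and 0.21 with Brca1 siRNA, against 0.02 with control siRNA. Foxr1 had 0.30 and 0.27 in PL2F8, against -0.04 and -0.14 in AB2.2, and 0.19 with Brca1 siRNA, against 0.27 with control siRNA. The 2 lines did not overlap at Foxk2 or Foxr1, where PL2F8 was the higher, while at Foxp3 both PL2F8 values lay just below both AB2.2 values.

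Averaged over the members in bins of 250 bp, the signal on all 6 arrays was under 1.06 in each bin beyond 2000 bp upstream, climbed toward the start and was highest in one of the bins from 250 to 750 bp downstream. In the bin from 250 to 500 bp downstream it was 2.94 and 2.79 in PL2F8, against 2.19 and 1.90 in AB2.2. In R1 cells it was 2.54 with Brca1 siRNA, against 2.37 with control siRNA. The difference of PL2F8 minus AB2.2 was also widest in that bin, at 0.82, and was 0.12 to 0.31 in the 4 bins beyond 2000 bp upstream. Over all named genes the same difference was 0.67 in the first 250 bp downstream, 0.56 in the next bin, and 0.05 to 0.07 beyond 2000 bp upstream, so a narrowing of the difference away from the start is not particular to forkhead genes.

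**Figure D2:**
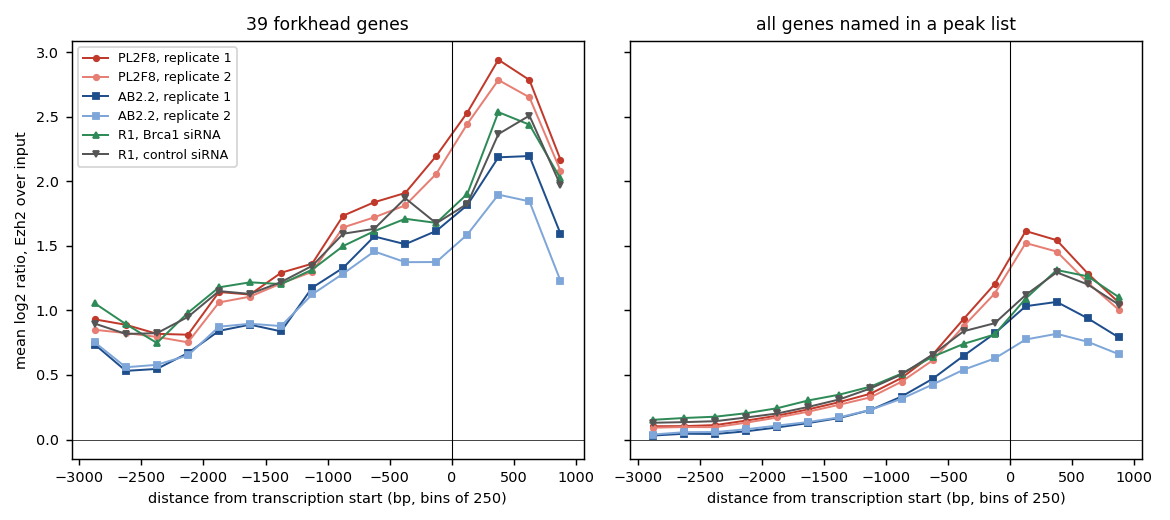
Mean Ezh2 log2 ratio (y axis) by distance from the transcription start in bins of 250 bp (x axis, upstream negative) on each array, for the 39 forkhead genes (left) and all named genes (right); lines are arrays. Forkhead genes reach 2.94 on the upper PL2F8 array in the bin from 250 to 500 bp and stay above the profile of all named genes at every distance.

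Ezh2 signal was higher in PL2F8 than in AB2.2 at 34 of the 39 forkhead genes and lower at none by limma's moderated test (Benjamini-Hochberg adjusted p under 0.05 over 9612 genes). The background is wide: 63.4% of all named genes were higher and 8.47% lower in PL2F8. The members' share was 87.2%, with a median difference of 0.47, against 0.30 over all named genes, and 32 of the 39 lay above that all-gene median. Both PL2F8 arrays stood above both AB2.2 arrays at 36 members, against 74% of named genes, and with 2 arrays against 2 an exact permutation test of a single gene could not give a p under 0.333. Differences of at least 0.5 were called at 17 members (43.6%), against 26.9% of named genes. Forkhead genes carry high Ezh2 signal, and high genes differed more often, so the count was also read by level. Among genes averaging at least 2, PL2F8 was higher at 17 of 19 members (89.5%), against 74.5% of 718 named genes. Among genes under 1 it was higher at 11 of 13 members (84.6%), against 60.4% of 7049 named genes. None of these comparisons of shares carries a test. A gene could enter through PL2F8 peaks alone, as Foxi1, Foxo4 and Foxp4 did, all 3 of them under 1 and called higher, while no member entered through AB2.2 peaks alone. Among genes named through a peak on an array other than PL2F8, a restriction added after the data were seen, 31 of 36 members were higher, against 61.3% of 8652 genes. Under 1 it was 8 of 10 members, against 57% of 6089 genes.

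The scaling of the arrays bears on this count. Quantile normalization of the 6 arrays lowered the median difference of all named genes to 0.14, with 50.2% higher and 20.4% lower, and higher calls then made up 71.1% of all calls, against 88.2% with median centring. The forkhead genes moved with it to 31 higher and 2 lower (Foxa2 and Foxl1) and a median of 0.28. Relative to the all-gene median the members' median was 0.17 above with median centring and 0.14 above with quantile normalization. By the array numbers, both AB2.2 arrays and PL2F8 replicate 2 came from one number series and PL2F8 replicate 1 came from that of the R1 arrays. Within the first series (without PL2F8 replicate 1) 27 forkhead genes were called higher, none lower, with a median difference of 0.42, and 46.9% of named genes were higher. The other series held no AB2.2 array.

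**Figure D3:**
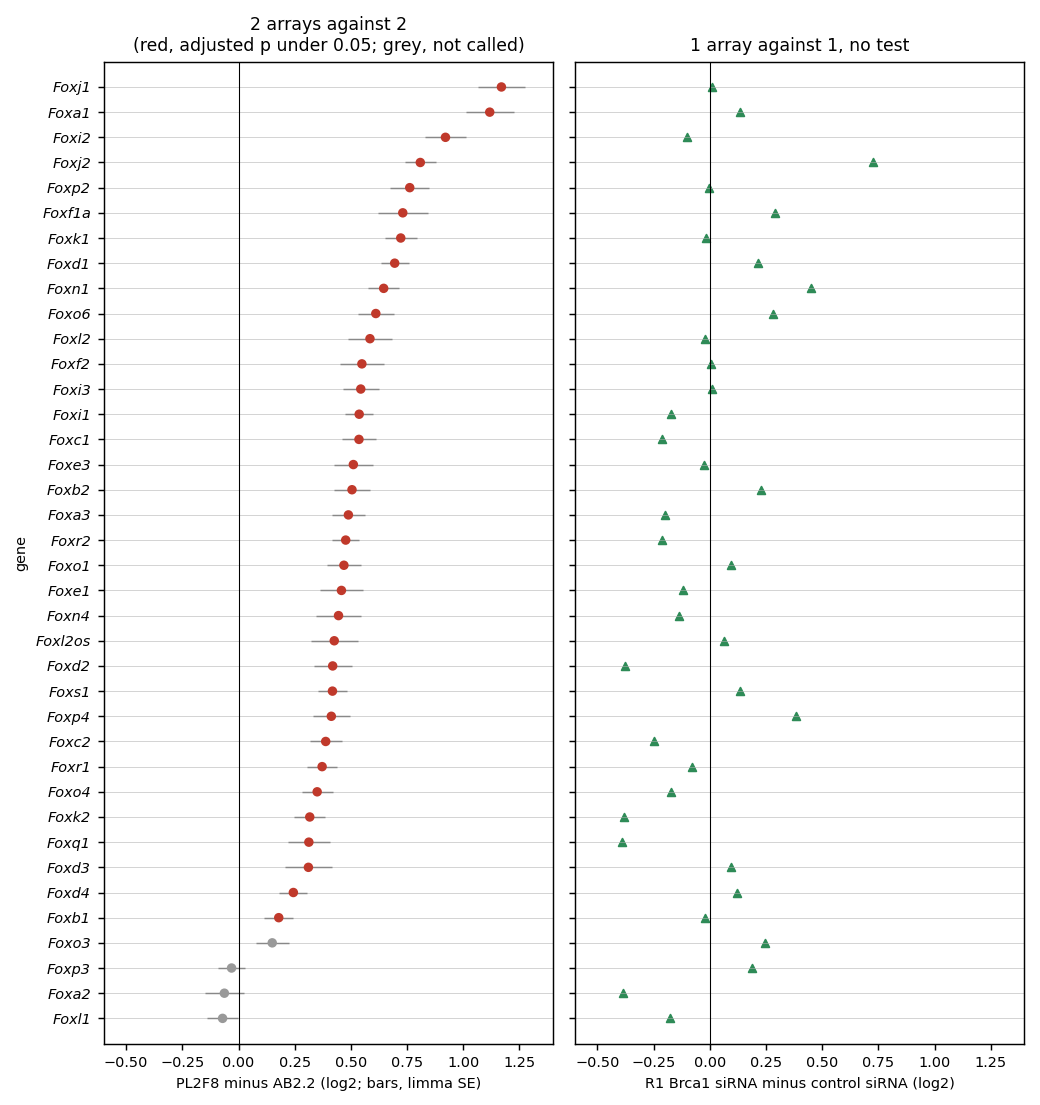
Differences in mean Ezh2 log2 ratio (x axes) at 38 of the forkhead genes (rows, ordered by the PL2F8 minus AB2.2 difference). Left, PL2F8 minus AB2.2 with limma standard errors, red where called; right, the single R1 Brca1 siRNA array minus the single control array, where Foxj2 at 0.72 lies furthest right.

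Factors of the ectoderm, thyroid, thymus, ear and cilia were higher at 6 of 6 measured members, with a median difference of 0.60, where 63.4% of all named genes were higher. Foxj1, the factor that switches on genes of motile cilia, had 1.47 and 1.42 in PL2F8, against 0.43 and 0.11 in AB2.2. The PL2F8 arrays did not overlap those of AB2.2, and the difference of 1.17 ± 0.10 (limma SE), a 2.25-fold higher ratio, was the largest of the family (limma adjusted p = 9.59e-05). R1 cells had 1.33 at Foxj1 with Brca1 siRNA and 1.32 with control siRNA, both close to the PL2F8 values. Foxi2, an early ectodermal factor, had 2.43 and 2.25 in PL2F8, against 1.51 and 1.32 in AB2.2, a difference of 0.92 ± 0.09, and 1.86 with Brca1 siRNA, against 1.96 with control siRNA. Foxi1, a factor of the inner ear and of acid-secreting kidney cells, had 0.65 and 0.61 in PL2F8, against 0.07 and 0.12 in AB2.2, and 0.47 with Brca1 siRNA, against 0.64 with control siRNA. Its signal was low on every array, with a line difference of 0.54 ± 0.06 that was called, and the PL2F8 arrays were the only ones with a listed peak there.

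Foxn1, the factor that thymic epithelium needs, differed from the rest of the group. It had 0.05 and 0.05 in PL2F8, against -0.53 and -0.66 in AB2.2, and 1.13 with Brca1 siRNA, against 0.68 with control siRNA. The difference of 0.65 ± 0.07 between the lines was called (limma adjusted p = 0.000179), but it lay between a ratio near the array median and one below it. The 2 R1 arrays were the only ones with a listed peak at Foxn1, at false discovery rates of 0.107 with Brca1 siRNA and 0.168 with control siRNA. The R1 control array exceeded the AB2.2 mean by 1.28, the widest such gap among the members. Foxe1, the thyroid and palate factor, and Foxi3, a factor of ectodermal appendages, rose by 0.46 and 0.54.

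Endoderm and gut factors were higher at 5 of 7 measured members, close to the 63.4% of all named genes, with a median difference of 0.49. This group held both the second largest difference and 2 of the 5 members not called. Foxa1, a pioneer factor of endoderm and its organs, had 2.71 and 2.48 in PL2F8, against 1.60 and 1.35 in AB2.2, and 2.03 with Brca1 siRNA, against 1.90 with control siRNA. The difference was 1.12 ± 0.11 (limma adjusted p = 0.000118), and both R1 values fell between those of the 2 lines. Foxa2, its close relative and a factor of node, floor plate and endoderm, had 2.64 and 2.48 in PL2F8, against 2.71 and 2.53 in AB2.2, and 2.41 with Brca1 siRNA, against 2.80 with control siRNA. Here the lines overlapped, and the difference of -0.06 ± 0.09 was not called (limma adjusted p = 0.533). It was called lower at -0.36 under quantile normalization and at -0.48 with only the probes within 1000 bp. Without AB2.2 replicate 2 the difference was -0.16. The widest gap at Foxa2 lay in the bin from 500 to 750 bp upstream, which held 2 probes. PL2F8 had 1.8 and 1.7 in that bin, against 5.5 and 5.8 in AB2.2, with 2.4 on each R1 array. PL2F8 was the higher in each bin from 0 to 1000 bp downstream of Foxa2, by 0.24 to 0.70, and the other upstream bins went both ways. Foxa3, a liver and gut factor, rose by 0.49 from a low level.

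Foxf1a, a factor of gut and lung mesenchyme, had 3.62 and 3.44 in PL2F8, against 2.96 and 2.64 in AB2.2, and 3.45 with Brca1 siRNA, against 3.16 with control siRNA. The difference was 0.73 ± 0.11 with no overlap. Foxq1, a factor of stomach mucous cells and hair, had 2.84 and 2.69 in PL2F8, against 2.56 and 2.34 in AB2.2, and 2.84 with Brca1 siRNA, against 3.23 with control siRNA. Its difference between the lines, 0.31 ± 0.09, was called (limma adjusted p = 0.0163), but not without PL2F8 replicate 1 (0.24), while quantile normalization left -0.01, and its R1 difference of -0.39 was the lowest of the family. Foxl1, a factor of the mesenchymal cells beneath the gut epithelium, had 2.68 and 2.58 in PL2F8, against 2.74 and 2.65 in AB2.2, and 2.66 with Brca1 siRNA, against 2.84 with control siRNA. The difference of -0.07 ± 0.07 was not called (limma adjusted p = 0.384). It was called lower at -0.29 under quantile normalization (limma adjusted p = 0.00237) and was also called lower with the median of probes. It turned to 0.64 when only probes within 1000 bp were averaged (limma adjusted p = 0.00112), so the distal and proximal probes of Foxl1 went opposite ways.

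Several members lie close together. On chromosome 8 the starts of Foxf1a, Foxc2 and Foxl1 lie 31.7 kb and 11.5 kb apart in the peak lists' coordinates, and their differences were 0.73, 0.39 and -0.07. On chromosome 13 Foxq1, Foxf2 and Foxc1 lie 67.6 kb and 180.9 kb apart and differed by 0.31, 0.55 and 0.54, all called higher. On chromosome 4 Foxd2 and Foxe3, 17.1 kb apart, differed by 0.42 and 0.51. No test compared these neighbours with each other.

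Factors of mesoderm, kidney, eye and neural crest were higher at 8 of 8 members (63.4% of all named genes), with a median difference of 0.47. Foxd1, a factor of the kidney stroma, had 2.34 and 2.35 in PL2F8, against 1.68 and 1.62 in AB2.2, a difference of 0.70 ± 0.06, and 2.28 with Brca1 siRNA, against 2.06 with control siRNA. Foxl2 (values above) rose by 0.59 ± 0.10, and Foxs1, a factor expressed in pericytes and sensory neurons, had 0.55 and 0.58 in PL2F8, against 0.17 and 0.12 in AB2.2. In R1 cells Foxs1 had 0.69 with Brca1 siRNA, against 0.56 with control siRNA. The AB2.2 arrays were the only ones without a listed peak there. Foxd3, a factor of embryonic stem cells and neural crest, rose least in the group, by 0.31 ± 0.11 (limma adjusted p = 0.0287), but had -0.04 and no call under quantile normalization (limma adjusted p = 0.568) and no call without PL2F8 replicate 1 (0.24). Its 2.38 and 2.24 in PL2F8 stood close to 2.15 on one AB2.2 array, the other being at 1.85.

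Brain and spinal cord factors were higher at 5 of 6 members (63.4% of all named genes), with a median difference of 0.34, close to the 0.30 of all named genes. Foxp2, a factor of the developing brain and lung, had 2.78 and 2.66 in PL2F8, against 2.06 and 1.85 in AB2.2, a difference of 0.76 ± 0.09, and 2.38 in R1 cells with either siRNA. A second listed start of Foxp2, far from the first on chromosome 6, had 0.11 and 0.14 in PL2F8, against 0.16 and 0.14 in AB2.2. The window mean was thus high at only one of the 2 starts. At the second start AB2.2 replicate 2 had a listed peak with a false discovery rate of 0.145. Foxb1, a factor of the mammillary body and thalamus, had 2.79 and 2.71 in PL2F8, against 2.58 and 2.56 in AB2.2, and 2.74 with Brca1 siRNA, against 2.76 with control siRNA. Its difference of 0.18 ± 0.07 was just past the threshold (limma adjusted p = 0.0368) and was not called without either one of the PL2F8 arrays (0.14 without replicate 1, 0.22 without replicate 2). The Foxb1 call was also lost under quantile normalization (0.07, limma adjusted p = 0.377), within 1000 bp (0.19, limma adjusted p = 0.0934) and with an intensity trend (limma adjusted p = 0.369).

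Broadly expressed factors were higher at 6 of 7 measured members of the 13 in the list (63.4% of all named genes), with a median difference of 0.41, from a low median level of 0.78 and 0.73 in PL2F8, against 0.41 and 0.20 in AB2.2. Foxj2 had 1.44 and 1.38 in PL2F8, against 0.65 and 0.55 in AB2.2, a difference of 0.81 ± 0.07 (limma adjusted p = 8.56e-05). Foxk1, a factor of muscle progenitors and of metabolism, had 0.82 and 0.83 in PL2F8, against 0.18 and 0.03 in AB2.2, a difference of 0.72 ± 0.07, and 0.41 with Brca1 siRNA, against 0.43 with control siRNA. Both were higher in PL2F8 than in AB2.2 with no overlap, though Foxk1 stayed under 1 on every array. Among the Foxo genes, Foxo1 rose by 0.47 and Foxo4 by 0.35 (not called without PL2F8 replicate 1, 0.29), while Foxo3 had 0.78 and 0.73 in PL2F8, against 0.68 and 0.53 in AB2.2, and 0.79 with Brca1 siRNA, against 0.54 with control siRNA. The Foxo3 difference of 0.15 ± 0.07 was not called (limma adjusted p = 0.0975). Foxp4, a factor of lung and gut epithelium, had 0.74 and 0.69 in PL2F8, against 0.41 and 0.20 in AB2.2, and 0.63 with Brca1 siRNA, against 0.25 with control siRNA, and its line difference of 0.41 ± 0.08 was called.

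The 4 members outside these groups, Foxo6, Foxl2os, Foxr1 and Foxr2, were all called higher (63.4% of all named genes), with a median difference of 0.45. Foxo6 and Foxr2 lost the call with the median of probes, and Foxl2os lost it with an intensity trend. Foxo6 and Foxl2os also lost it when the highest running mean of 5 neighbouring probes replaced the window mean. Foxl2os was not called without PL2F8 replicate 1 (0.33). Foxr2 had 0.71 and 0.72 in PL2F8, against 0.22 and 0.25 in AB2.2, and 0.31 with Brca1 siRNA, against 0.52 with control siRNA. Listed peaks at Foxr2 came from the R1 control array and the PL2F8 duplicates. Foxp3, the single immune member, differed by -0.03 ± 0.06 and was not called (limma adjusted p = 0.663).

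The listed peaks were called by the authors on each array, with false discovery rates up to 0.198. Forkhead genes with a listed peak numbered 35 and 33 in PL2F8, against 28 and 27 in AB2.2, where the background shares were 68.8% and 67.5% in PL2F8, against 58.5% and 51.6% in AB2.2. In R1 cells they numbered 33 with Brca1 siRNA, against 34 with control siRNA (68.5% and 66.7% of named genes). All 6 arrays had a peak at 27 members (69.2%), against 38.6% of named genes. At 5 of the 39, Foxi1, Foxk1, Foxp4, Foxr2 and Foxs1, the PL2F8 duplicates each had a peak and the AB2.2 duplicates had none, as at 15.7% of named genes. The reverse held for no member and for 5.49% of named genes. All 5 averaged under 1 over the 6 arrays. Their false discovery rates on PL2F8 replicates 1 and 2 were 0.121 and 0.117 at Foxp4, 0.103 and 0.022 at Foxi1 and 0.080 and 0.049 at Foxs1. They were 0.009 and 0.024 at Foxk1 and 0.009 and 0.013 at Foxr2. Foxk2, Foxo4, Foxp3 and Foxr1 had a peak on a single array each, and the peak beside Foxk2 lay at -2820 bp and that beside Foxp3 at -5108 bp by the files' own distance from the start, outside the window averaged here.

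The height of the signal gave a different picture from its mean. Taking the highest running mean of 5 neighbouring probes in place of the window mean, an alternative added after the data were seen, 22 forkhead genes were called higher (56.4%) and 3 lower (7.69%), against 50.3% and 14.7% of named genes. The members' median difference was 0.60, against 0.47 over all named genes on the same measure. Foxc2, a factor of lymphatic vessels and skeleton, had highest running means of 4.42 and 4.31 in PL2F8, against 5.16 and 5.06 in AB2.2. The difference was -0.74 ± 0.15 (limma adjusted p = 0.00364). In the Foxc2 bin from 500 to 750 bp upstream, which held 2 probes, PL2F8 had 4.5 and 4.2, against 6.4 and 6.7 in AB2.2. The listed peaks of Foxc2 lay downstream of the start and went the other way, with scores of 3.5 and 3.4 in PL2F8, against 3.3 and 3.0 in AB2.2. The window mean of Foxc2 was also higher in PL2F8, with 2.70 and 2.61, against 2.33 and 2.204 in AB2.2. Foxc1, its relative in eye and heart development, had highest running means lower by -0.50 ± 0.15, and Foxd4, a neural plate factor, by -0.59 ± 0.17. In these 3 genes the tallest stretch was lower in PL2F8 while the average over the window was higher. With only the probes within 1000 bp the average was no longer called higher at Foxc2 or Foxd4. At Foxd4 the call was also lost with an intensity trend. Foxk1 and Foxr2 had the widest positive differences in height, 1.64 ± 0.14 and 1.60 ± 0.14.

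**Figure D4:**
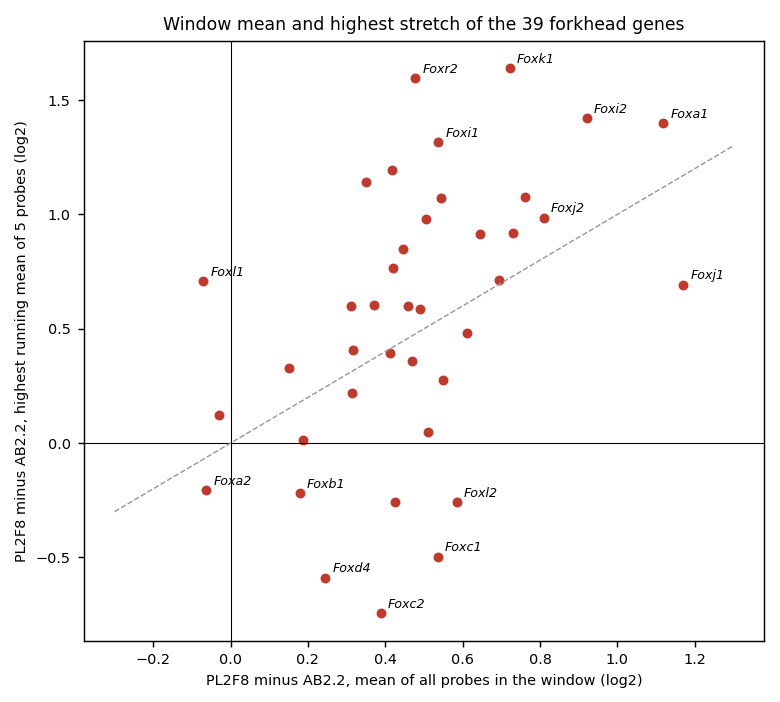
PL2F8 minus AB2.2 difference (log2) of the window mean (x axis) against that of the highest running mean of 5 probes (y axis) for the 39 forkhead genes; points are genes and the dashed line marks equal values. Foxc1, Foxc2 and Foxd4 lie right of 0 on the x axis and below 0 on the y axis, and Foxl1 lies near 0 on the x axis at a height difference of 0.71.

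In R1 cells, where each siRNA has 1 array and the difference no replicate check, the forkhead genes fell on both sides of the control. With Brca1 siRNA 18 members lay above the control and 21 below, with a median difference of -0.02, and 49.9% of named genes lay above. Foxj2 was the 1 member at least 0.5 higher, against 3.35% of named genes, and no member was at least 0.5 lower, against 2.81%. It had 1.37 with Brca1 siRNA, against 0.65 with control siRNA, a difference of 0.72. The R1 control value was close to the AB2.2 values of 0.65 and 0.55, and the Brca1 siRNA value to the PL2F8 values of 1.44 and 1.38. In the bin from 250 to 500 bp downstream Foxj2 had 2.92 and 2.83 in PL2F8, against 1.12 and 0.21 in AB2.2, and 2.69 with Brca1 siRNA, against 0.92 with control siRNA. Foxn1 and Foxp4 followed with R1 differences of 0.45 and 0.38. A limma interaction over all 6 arrays, which assumes that the lone R1 arrays vary like the duplicates, called the line difference larger than the R1 difference at 23 of 39 members. It did so at 44.3% of named genes, and called a difference in either direction at 51%. The lowest R1 differences were Foxq1 and Foxa2 at -0.39 each and Foxk2 at -0.38.

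**Figure D5:**
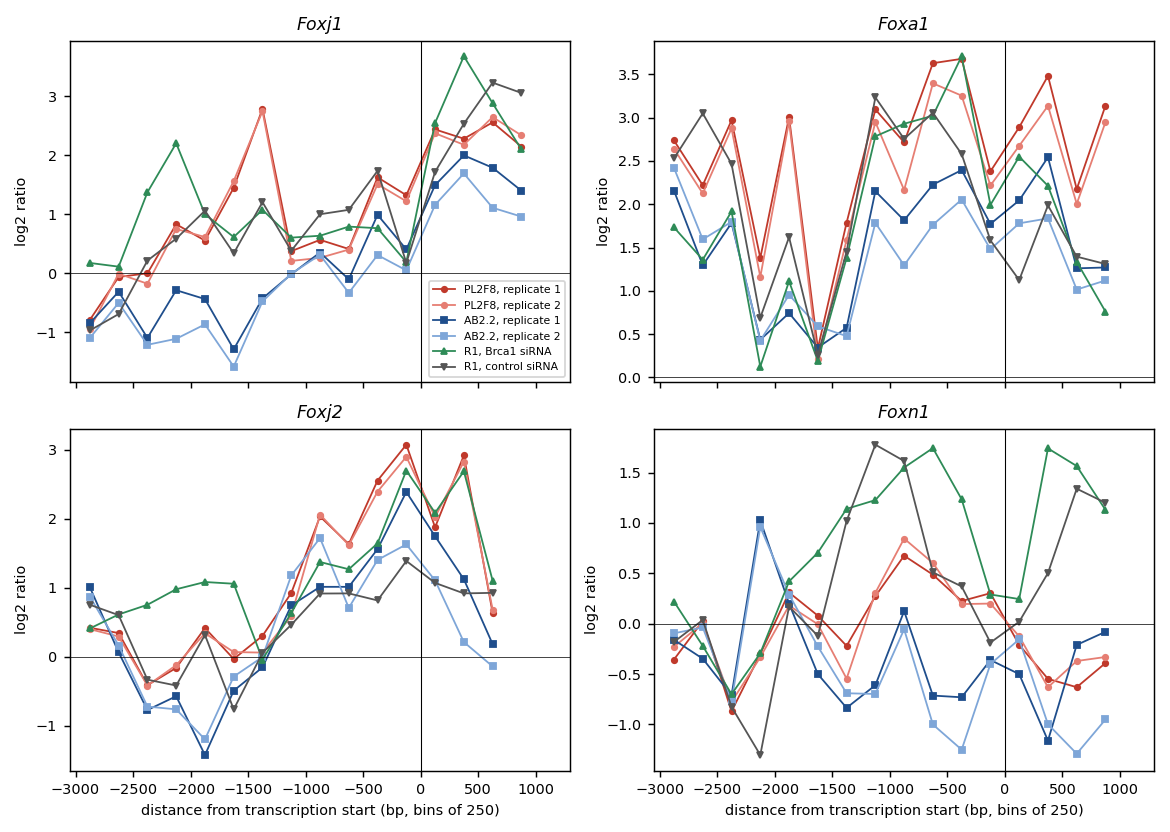
Ezh2 log2 ratio (y axes) by distance from the start in bins of 250 bp (x axes) at Foxj1, Foxa1, Foxj2 and Foxn1 on each array; lines are arrays and bins hold 1 to 3 probes. At Foxj2 the Brca1 siRNA line follows the PL2F8 lines near the start. At Foxn1 both R1 lines lie highest from 1500 to 750 bp upstream and from 0 to 1000 bp downstream, but not in every other bin.

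The profiles show where in the window the differences lay. At Foxj1 the widest gap was 1250 to 1500 bp upstream, where the ratio was 2.79 and 2.75 in PL2F8, against -0.43 and -0.48 in AB2.2, and 1.08 with Brca1 siRNA, against 1.21 with control siRNA. In the bin from 250 to 500 bp downstream the same gene had 2.28 and 2.18 in PL2F8, against 2.00 and 1.69 in AB2.2. Line differences at Foxj1 were thus 2.95 and 3.23 in the bins from 1250 to 1750 bp upstream and 0.39 to 1.16 downstream, each over 1 to 3 probes. At Foxa1 the gap was widest 1750 to 2000 bp upstream, at 2.13, and was 1.52 in the bin from 500 to 750 bp upstream and 1.12 in that from 250 to 500 bp downstream. The bin from 1500 to 1750 bp upstream went the other way, at -0.20.

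By the labels neither R1 control cells nor AB2.2 cells were depleted of Brca1, but they also differ in line, transfection and array number series, which cannot be told apart. The comparison shares the AB2.2 arrays with the one above, and the 2 are set side by side only. R1 control siRNA minus AB2.2 had a median of 0.28 over the forkhead genes and 0.21 over all named genes, against 0.47 and 0.30 for PL2F8 minus AB2.2. At Foxj1 it was 1.05, against 1.17 for PL2F8, and at Foxa3 0.59, against 0.49. At Foxj2 it was 0.04, against 0.81, and at Foxl2 0.01, against 0.59. So the R1 control array stood about as far above AB2.2 as PL2F8 did at Foxj1 and Foxa3, and level with AB2.2 at Foxj2 and Foxl2. These are examples, and other members behaved like either kind. The R1 control gap was the wider at Foxn1 (1.28, against 0.65), Foxq1 (0.778, against 0.313) and Foxb2 (0.618, against 0.505), among others. It was the narrower at Foxa1 (0.423, against 1.118) and Foxf2 (-0.025, against 0.549), among others.

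Other genes of the same pathways and families were counted from lists, and the shares of the 3 pathway lists called higher were close to the 63.4% of all named genes. Of 15 partners of Foxa factors in endoderm, 14 were measured, and 9 were higher and none lower in PL2F8, with a median difference of 0.40. Gata4 and Sox17, endoderm factors, rose by 0.56 ± 0.15 and 0.36 ± 0.08. Of 14 Nodal pathway genes 10 were measured, with 6 higher and 1 lower, the activin receptor gene Acvr1b at -0.80 ± 0.06, and a median of 0.23. Of 21 genes of the insulin and PI3K pathway and FoxO targets 11 were measured, with 7 higher and 1 lower, the cell cycle inhibitor gene Cdkn1b at -0.31 ± 0.07, and a median of 0.33. Set beside other families of developmental factors, 11 of 18 Sox genes were higher and 2 lower (Sox12 and Sox30), 4 of 5 Gata genes were higher and none lower, and 6 of 11 T-box genes were higher and 2 lower (Tbx3 and Tbx20). Their median differences were 0.34, 0.35 and 0.42.

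Gene groups outside development give the reach of the difference, where 63.4% of all named genes were higher and 8.47% lower. Of 130 olfactory receptor genes, the calls went both ways (47 higher, 44 lower, median -0.04), while 15 of 18 ribosomal protein genes, which had hardly any Ezh2 signal (medians of 0.17 and 0.17 in PL2F8, against -0.15 and -0.17 in AB2.2), were higher and 1 lower. Of 10 embryonic stem cell genes 7 were named in the lists, and 2 were higher and 2 lower. Esrrb was higher by 0.585 ± 0.121 and Klf4 by 0.319 ± 0.066, and Pou5f1 was lower by -0.75 ± 0.07 and Fgf4 by -0.53 ± 0.10. Of 8 fibroblast feeder genes 7 were named, with 4 higher and none lower. The duplicates agreed closely: over 9612 windows the Pearson correlation was 0.998 in PL2F8 and 0.989 in AB2.2, across genes, which are not independent replicates. Replicate 1 lay above replicate 2 at 33 of 39 members in either line, by 0.10 on average in PL2F8 and 0.14 in AB2.2, against 0.05 and 0.10 over all named genes.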

How the data were processed

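Per the labels, Ezh2 ChIP DNA (Cy5) and input DNA (Cy3) were amplified by ligation-mediated PCR and hybridised to NimbleGen promoter arrays of 714900 probes. The deposited table holds the authors' normalized log2 ratios, with array medians of 0.02 to 0.04; neither the normalization nor the build of the coordinates is stated in the sources used here. The authors' peak lists, per the file headers, give each peak a score, a false discovery rate (a fraction) and its nearest gene; the score followed the fourth highest log2 ratio in the peak (Pearson r 0.969 to 0.986 over peaks). Here each array was centred on its median, and probes within 2000 bp of a gene's start (at least 5) were averaged, taking the start with the highest mean. PL2F8 and AB2.2 were compared with limma 3.58.1 (R 4.3.3) over 9612 genes, with Benjamini-Hochberg adjustment at 0.05. The design pairs no arrays. Arrays have no read depth, and their number limits the precision.

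On simulated data built on this comparison's 9612 windows, 84 of 100 genes changed by 0.5 and 100 of 100 changed by 1 were recovered, with 10 false calls. The simulation changed few genes and gave both lines the same spread. In the real data 63.4% of genes were called higher, and the duplicates differed with an SD of 0.06 in PL2F8 and 0.12 in AB2.2. It therefore checks the code and cannot give the error rate of the calls made here. Genes given on every array were the 8 highest and 6 lowest by PL2F8 minus AB2.2, the 4 highest and 4 lowest by level, the 3 highest and 3 lowest in R1 cells, and those with peaks on both arrays of 1 line only. The members and all gene lists were chosen with earlier results of these data known. Alternatives covered scaling, probe averaging, window size, starts, probe minimum, left-out arrays, a replicate block, the variance trend and the peak threshold. Promoter sequences are from RefSeq (GRCm38.p6), matched by symbol to 26 of 39 members. Columns of samples not mapped numbered 0. The values of 1 member are counted in the totals but not reported here.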

Additional observations from a re-analysis of the deposited data

Results flagged for a closer look

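At 23 forkhead genes the PL2F8 minus AB2.2 difference was larger than the R1 Brca1 siRNA minus control difference by a limma interaction term over all 6 arrays (Benjamini-Hochberg adjusted p under 0.05). The lone R1 arrays were assumed to vary like the duplicates, and the same call was made for 51% of all named genes (44.3% in this direction), so the count is read against that share. The median excess was 0.52 over the members and 0.30 over all named genes. On the log2 scale the excess was 1.16 at Foxj1, 1.02 at Foxi2 and 0.98 at Foxa1. It was 0.80 at Foxd2, 0.77 at Foxp2, 0.75 at Foxc1, 0.74 at Foxk1 and 0.71 at Foxi1. Foxk2 and Foxq1 had 0.70 each, Foxa3 and Foxr2 0.69 each, Foxc2 0.64 and Foxl2 0.61. Foxe1 and Foxn4 had 0.58 each, Foxe3, Foxf2 and Foxi3 0.54 each, Foxo4 0.52, Foxd1 0.48, Foxr1 0.45 and Foxo1 0.38. Foxj2, higher by 0.81 in PL2F8 and by 0.72 with Brca1 siRNA, was not among them. Groups of 1 or 2 arrays were too small for a search for outlying arrays.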

How the results depend on the processing

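The count of forkhead genes called higher in PL2F8 stayed within 1.5 times of 34 under each alternative run, except for the highest running mean of 5 probes, with 22. The count called lower, 0 as reported, was 2 under quantile normalization, 1 with the median of probes (Foxl1), 1 with a window of 1000 bp (Foxa2) and 3 with the highest running mean. Leaving out each array in turn gave a median difference of 0.41 to 0.56, against 0.26 to 0.35 over all named genes. With the replicate number as a block, 36 were higher and none lower, against 69.3% and 10.6% of all named genes. The median was then 0.47, and Foxo3 was called. With that block limma's adjusted p at Foxa1 was 1.82e-24, against 0.000118 without it. Values that small from 2 arrays against 2 are not credible, so the block's calls, Foxo3 included, are given no weight. Same-numbered deviations correlated at 0.25 over genes, and 2 pairs do not settle a pairing. The median difference moved to 0.28 (quantile normalization), 0.57 (median of probes), 0.64 (1000 bp) and 0.60 (highest running mean). An intensity trend gave 29 higher, against 65.4% of all named genes. The median level in PL2F8, 2.31, became 2.16 (quantile), 2.00 (median of probes), 1.75 (starts pooled) and 3.66 (highest running mean). In AB2.2, 1.47 became 1.67, 1.33, 1.86 (1000 bp) and 3.07 (highest running mean). With Brca1 siRNA, 1.86 became 1.71 (scaled to the same median absolute deviation), 1.96 (centred outside peaks), 1.54 (median of probes), 2.13 (1000 bp), 1.75 (starts pooled) and 3.37 (highest running mean); with control siRNA, 1.80 became 2.06 (1000 bp) and 3.28 (highest running mean). The R1 median difference, -0.02, turned to 0.038 under quantile normalization and 0.05 with the median of probes, and was -0.13 with the arrays scaled. R1 differences of at least 0.5 upward, 1 as reported, numbered 2 within 1000 bp and 3 each with the median of probes and the highest running mean; downward, 0 as reported, they numbered 1 with the median of probes, 2 with the arrays scaled and 6 with the highest running mean. Members that reversed were Foxc1 (-0.50), Foxc2 (-0.74) and Foxd4 (-0.59) with the highest running mean, Foxd3 (-0.035 under quantile normalization), Foxb1 (-0.08 with the median of probes and -0.22 for the running mean), Foxk2 (-0.11 with the median of probes), Foxl1 (0.64 within 1000 bp, 0.71 with the highest running mean), Foxl2 and Foxl2os (-0.26 each with the highest running mean), Foxq1 (-0.01 under quantile normalization) and, in R1, Foxn1 (-0.05 with the highest running mean). The cause was not tested. Without PL2F8 replicate 1, 7 members were no longer called: Foxb1 (0.14), Foxd3 (0.24), Foxd4 (0.25), Foxk2 (0.29), Foxl2os (0.33), Foxo4 (0.29) and Foxq1 (0.24); without PL2F8 replicate 2, Foxb1 (0.22) and Foxd4 (0.24). Listed peaks at a false discovery rate of at most 0.05 left 29 and 31 members in PL2F8, against 26 and 25 in AB2.2, and 27 with Brca1 siRNA, against 23 with control siRNA.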
